A study of Mus musculus with 8 samples.

Results

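The extracellular proteases and inhibitors described here are the matrix metalloproteinases (Mmp), the ADAMTS proteases (Adamts) and the tissue inhibitors of metalloproteinases (Timp) of the mouse cornea. Members were the protein-coding genes whose symbol is Mmp, Timp or Adamts followed by digits and optional letters, which gave 45 of the 54532 genes of the expression table. They comprised 22 Mmp genes, 19 Adamts genes and 4 Timp genes. Of the 45, 3 were at 0 in all corneas (Mmp7, Mmp8 and Mmp25), 3 had a mean below the filter used for testing (Mmp1b, Timp4 and Adamts19) and 39 were tested.

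Total RNA of naive, untreated corneas was sequenced from 4 BALB/cN and 4 C57BL/6N samples, all from male mice. An age range is stated for the parental mice used for phenotyping, but not separately for those sequenced. BALB/cN is an albino inbred strain and C57BL/6N a black one, and the strains were chosen for their weak and strong growth of lymphatic vessels into the cornea. The comparison asks which genes differ in corneal expression between them. No source states that the corneas of a strain came from separate animals, so p-values measure the spread between these samples only. Values are regularized log (rlog) values, which are on a log2 scale, are already normalized for library size and are shrunken towards the mean of the gene where few reads were counted. An rlog difference therefore understates the change of a weakly expressed gene, and the read depth is not contained in the values. Differences are BALB/cN minus C57BL/6N.

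Matrix metalloproteinases and ADAMTS proteases are zinc-dependent enzymes that are made as inactive precursors and cut collagens, proteoglycans and other matrix proteins. Secreted and membrane-bound forms exist, and the TIMP proteins block their active sites. In the cornea these enzymes are known for remodelling of the collagenous stroma, for wound healing and for the growth of vessels from the limbus.

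The whole corneas differed in how much RNA of other layers they held. Epithelial markers were stable, with Krt12, the keratin of the corneal epithelium, between 19.60 and 19.85, and the epithelial list mean between 15.74 and 15.95 in BALB/cN and between 15.77 and 15.91 in C57BL/6N. The mean of 13 stromal keratocyte genes was 13.79, 11.98, 13.35 and 13.82 in BALB/cN replicates 1 to 4 and 13.91, 13.93, 11.40 and 11.39 in C57BL/6N replicates 1 to 4, so BALB/cN replicate 2 and C57BL/6N replicates 3 and 4 were poor in stromal transcripts. BALB/cN replicates 1 and 4 were rich in transcripts of lens (list mean 7.31 and 6.54, against 4.71 to 5.28 elsewhere), of pigment cells (9.52 and 10.37, against 6.15 to 8.05 elsewhere) and of smooth muscle and pericytes (9.32 and 9.81, against 6.59 to 7.76 elsewhere). In bulk tissue, fewer cells of a type and less RNA per cell cannot be told apart. Of the marker lists, conjunctiva had 4 of 8 genes lower in BALB/cN (list means 7.30 to 7.67 against 7.76 to 7.88), epithelium had 1 of 10 higher and neutrophils had 1 of 3 tested genes lower (0.77 to 0.83 against 0.90 to 0.97), with 6 of 10 neutrophil genes (Ly6g, Retnlg, Cxcr2, Elane, Mpo and Ngp) at 0 in all corneas. Over all genes tested, 2.83% were called higher, 2.91% lower, and 23.7% had an unadjusted limma p-value under 0.05. An unadjusted p-value under 0.05 was found in 7 of 8 conjunctival, 2 of 10 epithelial and 1 of 3 neutrophil genes. By limma, no gene was called in the other lists. Unadjusted p-values under 0.05 were found in 1 of 12 lens, 2 of 11 macrophage, 3 of 8 vascular, 1 of 8 skeletal muscle and 2 of 7 Schwann cell genes. No stromal, corneal endothelial, pigment, mast cell or smooth muscle gene of these lists had one. Their means in BALB/cN and C57BL/6N ranged from 10.78 to 11.44 and 10.38 to 11.67 for corneal endothelium, from 5.96 to 6.75 and 5.79 to 6.67 for macrophages, from 4.68 to 5.72 and 4.62 to 5.22 for vessels, from 4.38 to 4.63 and 4.37 to 4.65 for skeletal muscle, from 7.38 to 8.97 and 7.45 to 8.50 for Schwann cells, and from 1.70 to 1.75 and 1.72 to 1.82 for mast cells, of which Fcer1a was at 0.

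Expression of the family ranged from strong to none. Per kilobase of exon, on the log2 scale of mean rlog minus log2 of the exonic length in kb, Timp3 had the highest level with 10.13, followed by Mmp14 with 10.06, Timp2 with 9.97, Mmp2 with 9.22 and Mmp28 with 9.11. Timp3 and Timp2 are secreted inhibitors, of which the first binds to the matrix and also blocks ADAMTS enzymes. Mmp14 is a membrane-anchored collagenase, Mmp2 is the gelatinase that it activates together with Timp2, and Mmp28 is a protease of surface epithelia. The levels of Timp3, Mmp14 and Timp2 lay closer to each other than the spread of Timp3 or Timp2 between corneas. The next members were Mmp15 with 7.20, Adamts1 with 6.67, Adamts2 with 6.49 and Adamts10 with 6.25. Part of the exons of Timp3, 21.3% of their bases, is shared with Syn3 on the opposite strand. The libraries were strand-specific, but whether counting used the strand is not given in the sources used here, so reads of such partners may not have been kept apart.

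**Figure D1:**
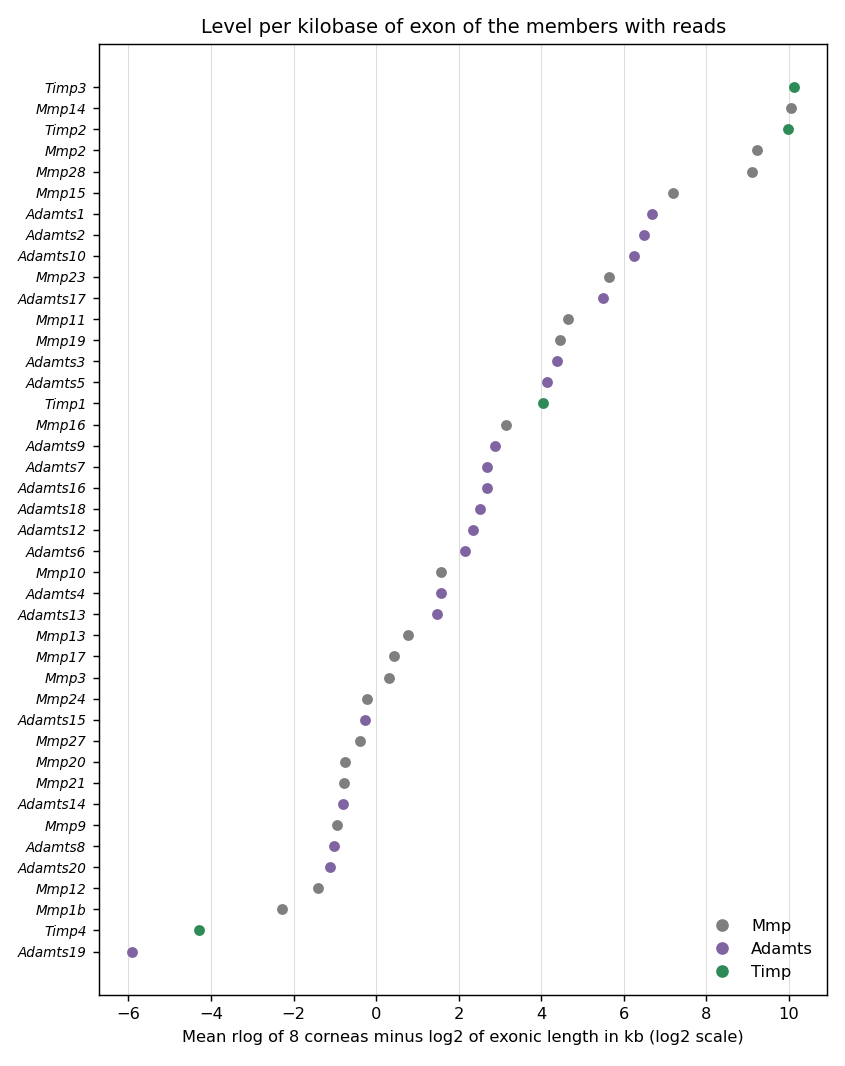
Level of the 42 members with reads, as the mean rlog of 8 corneas minus log2 of the exonic length in kb (x axis, log2 scale), with 1 point per gene coloured by family. Timp3, Mmp14 and Timp2 lie at about 10 and Adamts19 lies lowest at -5.91.

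At the other end, 12 tested members had a mean rlog under 3. These were Adamts8, Adamts14, Adamts20, Mmp3, Mmp9, Mmp10, Mmp12, Mmp13, Mmp20, Mmp21, Mmp24 and Mmp27. Their values over the 8 corneas spanned between 0.09 and 0.37, none passed the test between strains, and the largest difference was 0.13. Mmp9, the gelatinase of leukocytes and wounded epithelium, had an rlog value of 0.91, 0.86, 0.90 and 0.84 in the BALB/cN corneas and of 0.99, 0.84, 0.84 and 0.84 in the C57BL/6N corneas. The groups overlapped and all values were near the lower end of the table (difference -0.00, standard error (SE) 0.0367, limma adjusted p = 0.973, Benjamini-Hochberg over all genes tested). Mmp8, the collagenase of neutrophils, and Mmp7, the matrilysin of glandular epithelia, were listed at 0 in every cornea, as was the membrane-anchored Mmp25 of leukocytes. Timp4 lay at -1.72 in BALB/cN replicate 1 and at -1.74 in all other corneas, and Mmp1b and Adamts19 had means of -1.73 and -2.10.

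Of these silent or weak genes, 9 are neighbours on chromosome 9 between 7272514 and 7699585 (GRCm38), in the order Mmp13, Mmp12, Mmp1b, Mmp3, Mmp10, Mmp8, Mmp27, Mmp20 and Mmp7. The cluster holds collagenases, stromelysins, the macrophage elastase Mmp12 and the enamel protease Mmp20. Its highest mean rlog was 2.37, in Mmp10. In the cluster 2 genes were at 0, 1 was below the filter, and of the 6 tested none passed the strain test, with a median difference of 0.01. At an unadjusted p-value under 0.05 the count of limma was also 0.

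The promoter windows of the cluster differed in short motifs from those of the other members. Windows of 300 bases, from 250 before the transcription start to 50 after it, were found for 31 of the 45 members in RefSeq (GRCm38.p6). They were searched on both strands and at any position for TGANTCA (N is any base) as the AP-1 site. The TATA box was searched as TATAAA and the GC box as GGGCGG. Members were counted by gene, with a match in any of their windows, while the share over all was counted by window. An AP-1 match was present in 7 of the 9 cluster genes and in 0 of the other 22 members with a window, against 7.81% of all 32851 windows. Mmp12 and Mmp7 each also have a window without an AP-1 or TATA match. A TATA match was present in 8 of the 9 and in 2 of the 22 (all windows 13.6%). A GC box was present in 0 of the 9 and in 18 of the 22 (all windows 35.7%). A match describes letters only and was not tested for binding. The stretches from the AP-1 match to the TATA match follow for the cluster genes that had both, since this pair of motifs was found in the cluster and in no other member with a window. Capitals mark both matches, which do not overlap, and the letters are those of the C57BL/6J reference. At the N of TGANTCA, Mmp20 has A, and the other stretches have G or C. The Mmp12 stretch belongs to a start further inside the gene, and its TATA match begins 4 bases after that start.

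Mmp13 (chr9:7272475-7272507, plus strand): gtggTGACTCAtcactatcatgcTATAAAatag
Mmp12 (chr9:7347326-7347387, plus strand): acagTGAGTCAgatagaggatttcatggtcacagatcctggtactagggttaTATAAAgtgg
Mmp1b (chr9:7388066-7388123, minus strand): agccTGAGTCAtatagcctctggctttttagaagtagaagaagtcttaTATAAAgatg
Mmp3 (chr9:7445772-7445824, plus strand): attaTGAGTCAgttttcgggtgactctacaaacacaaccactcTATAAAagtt
Mmp10 (chr9:7502275-7502322, plus strand): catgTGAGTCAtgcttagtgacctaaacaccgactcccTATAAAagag
Mmp20 (chr9:7628132-7628182, plus strand): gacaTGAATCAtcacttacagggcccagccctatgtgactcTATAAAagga
Mmp7 (chr9:7692023-7692073, plus strand): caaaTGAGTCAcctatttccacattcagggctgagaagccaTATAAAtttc

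Between the strains, 4 of the 39 tested members (10.3%) passed the threshold of limma, an adjusted p-value not above 0.01, against 5.74% of all 25402 genes tested. Adamts18 was higher in BALB/cN, which is 1 member against a background of 2.83% called higher. Mmp15, Adamts17 and Mmp14 were lower, which is 3 members against a background of 2.91% called lower. By family, 1 Adamts gene was higher and 1 lower of 18 tested, 2 Mmp genes were lower of 18 tested, and none of 3 Timp genes passed, of which 1 had an unadjusted p-value under 0.05. The median difference of the 39 members was 0.11, against 0.01 over all genes tested. In the stromal keratocyte list, of which no gene was called, the median difference was 0.63. In 8 members (20.5%) the strains did not overlap, against 18.3% of all genes tested, so the family was not set apart by this count. At an unadjusted p-value under 0.05 there were likewise 8 members (20.5%), against 23.7% of all genes tested.

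Adamts18, a secreted ADAMTS protease whose human counterpart is mutated in an eye malformation with small corneas, spans bases 113697126 to 113848738 of chromosome 8 (minus strand). Its rlog value was 7.07, 7.24, 6.69 and 6.83 in the BALB/cN corneas and 4.99, 4.69, 4.75 and 4.70 in the C57BL/6N corneas. All BALB/cN values lay above all C57BL/6N values, and the spread within either strain was small beside the gap. The mean was 6.96 ± 0.246 (SD, n = 4) against 4.78 ± 0.140 (SD, n = 4), a difference of 2.17 on the rlog scale (SE 0.133, limma adjusted p = 7.34e-06). The exact two-sided permutation test gave p = 0.0286, which is the lower limit of this test with 4 corneas in each strain.

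Mmp15, a membrane-type matrix metalloproteinase related to Mmp14, spans bases 95352268 to 95375080 of chromosome 8 (plus strand). The corneas had rlog values of 8.75, 9.08, 9.09 and 9.02 in the BALB/cN corneas and 10.17, 10.19, 10.41 and 10.31 in the C57BL/6N corneas. Again the groups were apart, in the opposite direction to Adamts18. The mean was 8.99 ± 0.157 (SD, n = 4) against 10.27 ± 0.112 (SD, n = 4), a difference of -1.28 (SE 0.0909, limma adjusted p = 1.88e-05, exact two-sided permutation test p = 0.0286).

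Adamts17 is a secreted protease whose human counterpart is mutated in a syndrome with short stature and a displaced lens. It lies on chromosome 7 from 66839735 to 67153171. rlog values were 8.16, 7.85, 8.14 and 8.35 in the BALB/cN corneas and 8.82, 8.60, 8.97 and 8.78 in the C57BL/6N corneas. The highest BALB/cN cornea stayed below the lowest C57BL/6N cornea. The mean was 8.12 ± 0.209 (SD, n = 4) against 8.79 ± 0.153 (SD, n = 4), a difference of -0.67 (SE 0.117, limma adjusted p = 0.00527, exact two-sided permutation test p = 0.0286).

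Mmp14, the membrane-anchored collagenase, lies on chromosome 14 from 54431612 to 54445364. Across corneas the rlog value was 12.43, 12.49, 12.56 and 12.52 in the BALB/cN corneas and 12.80, 12.71, 12.80 and 12.71 in the C57BL/6N corneas. The strains were separated, but by little, with 12.50 ± 0.0541 (SD, n = 4) against 12.76 ± 0.0543 (SD, n = 4). The difference was -0.25 (SE 0.0485, limma adjusted p = 0.00837, exact two-sided permutation test p = 0.0286).

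The calls of Adamts18 and Mmp15 were kept with each cornea left out in turn, where the adjusted p-values from limma reached at most 9.28e-05 and 0.000172. That of Adamts17 was lost without BALB/cN replicate 1 or 3 or C57BL/6N replicate 1, 3 or 4 (limma adjusted p between 0.0172 and 0.0185). Its difference stayed between -0.74 and -0.58 with a cornea left out, against -0.67 with all. These fits hold fewer samples, and from 953 to 1163 genes were called in them, against 1458 with all corneas. The call of Mmp14 was lost with every cornea that was left out (limma adjusted p between 0.0147 and 0.0286). It was also lost after median centring (0.0656) or quantile normalization (0.0227) and without the filter (0.0103). Without the 3 stroma-poor corneas 2 members were called, Adamts18 (2.02) and Mmp15 (-1.23), against 3.35% of all genes, while Adamts17 (-0.49, limma adjusted p = 0.039) and Mmp14 (-0.25, limma adjusted p = 0.048) were not. After the limma p-values were recalibrated to an empirical null, 0 of the 25402 genes tested were called, and so none of the 4. The smallest recalibrated adjusted p-value of a member was 0.232. Before adjustment, 5 of the 39 members had a recalibrated p-value under 0.05, against 1732 of the 25402 genes tested.

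**Figure D2:**
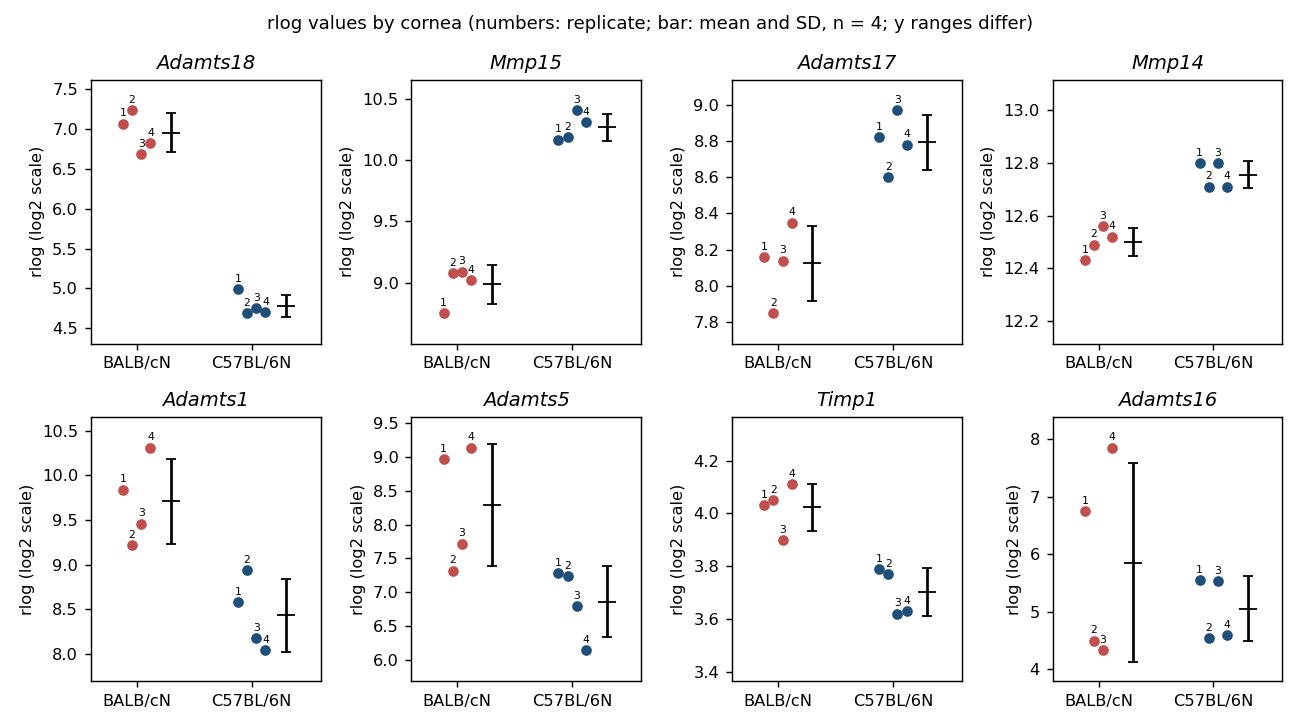
rlog values (y axis, log2 scale, with a range of its own for each gene) of 8 members in the 4 BALB/cN and 4 C57BL/6N corneas, numbered by replicate, with the mean and SD beside them. Adamts18 lies at 6.69 or more in BALB/cN and at 4.99 or less in C57BL/6N, Mmp15 shows the reverse order, and Adamts16 is highest in BALB/cN replicates 1 and 4.

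The promoter windows of Adamts18 and Mmp15, which differed most clearly, and of Mmp14, whose strain difference was small, are given here as the reference sequence near the start of each gene. Capitals mark the GC box in either orientation. None of the 3 windows holds an AP-1 or a TATA match as searched here. The letters are those of the C57BL/6J reference of RefSeq and not of BALB/cN.

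Adamts18 (chr8:113848790-113849089, minus strand): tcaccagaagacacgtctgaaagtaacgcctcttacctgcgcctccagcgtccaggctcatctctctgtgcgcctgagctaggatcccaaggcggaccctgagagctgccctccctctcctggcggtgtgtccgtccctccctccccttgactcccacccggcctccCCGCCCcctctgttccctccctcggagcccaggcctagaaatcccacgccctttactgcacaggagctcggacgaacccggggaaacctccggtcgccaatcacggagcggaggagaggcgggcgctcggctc
Mmp15 (chr8:95352046-95352345, plus strand): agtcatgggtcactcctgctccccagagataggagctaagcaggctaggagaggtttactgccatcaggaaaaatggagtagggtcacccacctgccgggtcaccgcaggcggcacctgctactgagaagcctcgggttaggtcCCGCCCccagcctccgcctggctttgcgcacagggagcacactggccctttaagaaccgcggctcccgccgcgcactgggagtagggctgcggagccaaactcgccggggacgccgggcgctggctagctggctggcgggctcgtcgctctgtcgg
Mmp14 (chr14:54431348-54431647, plus strand): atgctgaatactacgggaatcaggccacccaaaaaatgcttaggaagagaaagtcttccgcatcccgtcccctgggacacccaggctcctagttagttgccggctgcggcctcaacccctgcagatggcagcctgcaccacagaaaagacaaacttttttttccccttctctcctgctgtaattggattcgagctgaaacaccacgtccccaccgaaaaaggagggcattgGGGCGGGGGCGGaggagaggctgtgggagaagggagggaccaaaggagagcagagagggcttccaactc

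More members followed the stromal content of the cornea. In a fit of strain and the mean rlog of the stromal keratocyte list, which holds no member, 10 of the 39 members (25.6%) had a slope on the stromal mean that passed an adjusted p-value of 0.01 from limma, against 6.63% of all genes tested. All 10 slopes were positive, between 0.19 and 1.01 rlog units per unit of the stromal mean, against a background of 5.14% called positive. Counted over both signs, the excess depended on the scaling. After median centring 11 members (28.2%) had a called slope, against 29% of all genes tested, of which 1074 slopes were positive and 6294 negative. Among positive slopes alone, 7 members (17.9%) were called after centring, against 4.23% of all genes, and the 4 negative ones were Mmp12, Mmp15, Mmp21 and Mmp27. The 10 genes with a called slope in the values as deposited were Mmp2, Timp2, Timp3, Adamts2, Mmp19, Mmp11, Adamts9, Adamts10, Mmp23 and Mmp16. None of the 10 was called between strains (limma adjusted p between 0.475 and 0.878). Other layers moved with the stromal mean too, with a called slope in 6 of 6 corneal endothelial and 8 of 11 macrophage genes, and their part in the slopes was not tested.

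**Figure D3:**
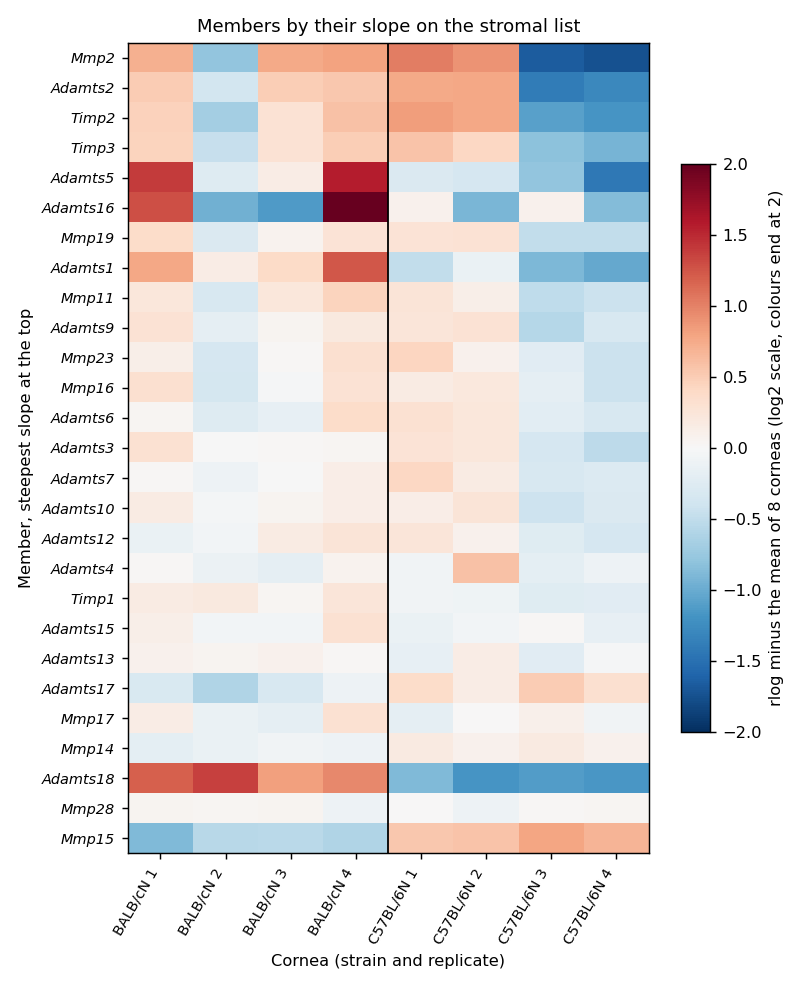
rlog value minus the mean of the 8 corneas (colour, log2 scale) for the 27 members with a mean rlog of 3 or more (rows, from the steepest to the lowest slope on the stromal list) in each cornea (columns). Mmp2, Adamts2, Timp2 and Timp3 at the top are low in BALB/cN replicate 2 and C57BL/6N replicates 3 and 4, while Adamts18, Adamts17, Mmp14 and Mmp15 split by strain.

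Mmp2 had the steepest slope, 1.01 (SE 0.0487, limma adjusted p = 4.88e-07). Its rlog value was 11.68, 10.18, 11.73 and 11.78 in the BALB/cN corneas and 12.00, 11.87, 9.31 and 9.23 in the C57BL/6N corneas. The low values were those of the stroma-poor corneas of both strains. The strains overlapped, with 11.34 ± 0.776 against 10.60 ± 1.54 (SD, n = 4 each) and a difference of 0.74 (limma adjusted p = 0.564), which became 0.16 beside the stromal covariate (limma adjusted p = 0.376).

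Timp2, the inhibitor that also serves as a bridge between Mmp14 and the precursor of Mmp2, had a slope of 0.74 (SE 0.0260, limma adjusted p = 1.43e-07). The corneas had rlog values of 12.39, 11.26, 12.23 and 12.52 in the BALB/cN corneas and 12.77, 12.71, 10.85 and 10.76 in the C57BL/6N corneas. The same 3 corneas were low. The strain difference was 0.32 (limma adjusted p = 0.744), it was -0.10 beside the covariate (limma adjusted p = 0.279), and without the 3 stroma-poor corneas it was -0.36 (limma adjusted p = 0.0555).

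Timp3 had a slope of 0.53 (SE 0.0216, limma adjusted p = 2.33e-07). rlog values were 13.61, 12.70, 13.44 and 13.65 in the BALB/cN corneas and 13.73, 13.57, 12.33 and 12.23 in the C57BL/6N corneas. The same 3 corneas were lowest, and the range was narrower than that of Timp2. The strain difference was 0.39 (limma adjusted p = 0.564).

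Adamts2, which removes the N-propeptide of fibrillar procollagens, had a slope of 0.75 (limma adjusted p = 6.05e-06), with values between 9.35 and 10.26 in BALB/cN and between 8.31 and 10.48 in C57BL/6N. For Mmp19 the slope was 0.32 (limma adjusted p = 0.00026), but 22.3% of its exonic bases are shared with Tmem198b on the opposite strand, whose mean rlog of 8.29 was above the 6.27 of Mmp19. The slopes of Mmp2, Timp2, Timp3, Adamts2 and Mmp19 passed the threshold with each cornea left out in turn. Those of Mmp11 (0.29), Adamts9 (0.27), Mmp23 (0.25), Mmp16 (0.24) and Adamts10 (0.19) each lost it without at least 2 of the corneas, and without C57BL/6N replicate 1 only 5 members had a slope that passed. After median centring, those of Mmp23, Mmp16 and Adamts10 were likewise above the threshold (limma adjusted p = 0.0118, 0.0128 and 0.0186).

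**Figure D4:**
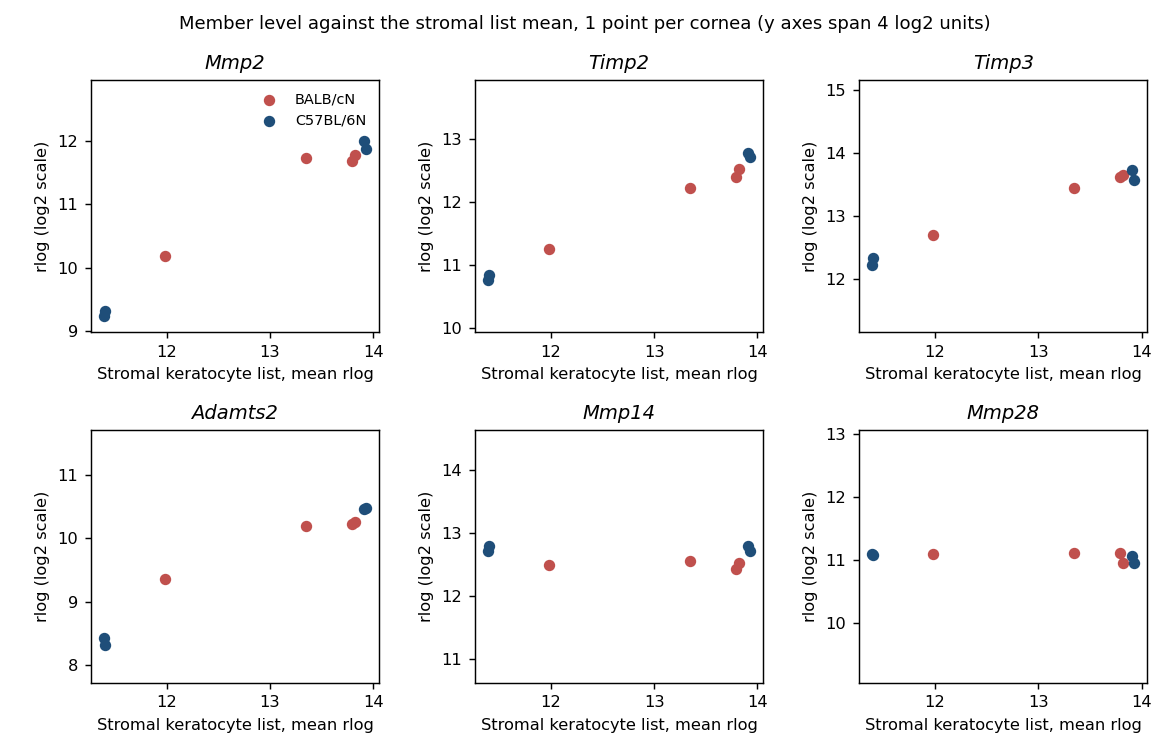
rlog value of 6 members (y axes, each spanning 4 log2 units) against the mean rlog of the stromal keratocyte list (x axis), with 1 point per cornea coloured by strain. Mmp2, Timp2, Timp3 and Adamts2 rise with the stromal mean, while Mmp14 and Mmp28 stay level, and the points form a stroma-rich and a stroma-poor set in which both strains occur.

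Mmp14 and Mmp28, by contrast, had nearly the same deposited values in stroma-rich and stroma-poor corneas. The slope of Mmp14 was -0.00 (SE 0.0208, limma adjusted p = 0.969) and that of Mmp28 was -0.03 (SE 0.0244, limma adjusted p = 0.463). After median centring the slopes were -0.08 for Mmp14 (limma adjusted p = 0.0283) and -0.11 for Mmp28 (limma adjusted p = 0.0153). In that setting the median slope of all genes tested was -0.08. Mmp28 had rlog values of 11.12, 11.09, 11.12 and 10.96 in the BALB/cN corneas and of 11.06, 10.95, 11.08 and 11.09 in the C57BL/6N corneas, with a strain difference of 0.03 (SE 0.0583, limma adjusted p = 0.835). The rlog value of Mmp14 minus that of Timp2 was accordingly 0.05, 1.24, 0.33 and 0.00 in the BALB/cN corneas and 0.03, -0.00, 1.96 and 1.95 in the C57BL/6N corneas. The corresponding difference between Mmp2 and Timp2 ranged from -1.08 to -0.50 in BALB/cN and from -1.54 to -0.77 in C57BL/6N, and was lowest in the stroma-poor corneas of each strain. These within-cornea differences are not corrected for length and were not tested.

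The covariate covers the stromal list only. Means of the conjunctiva list did not overlap between strains (7.30 to 7.67 against 7.76 to 7.88), and its part in the strain differences was not tested. The 4 members that differed between strains kept their difference beside the stromal covariate. It was 2.18 for Adamts18 (adjusted p = 1.75e-06), -1.24 for Mmp15 (1.24e-06), -0.67 for Adamts17 (0.00251) and -0.25 for Mmp14 (0.00286), all from limma. In that fit 5 of 39 members passed, against 9.5% of all genes, and the fifth was Adamts1. The slopes of Adamts18, Adamts17 and Mmp15 on the stromal mean were -0.01, 0.01 and -0.08, and none passed the test as deposited. That of Mmp15 was -0.16 after median centring (limma adjusted p = 0.00697).

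**Figure D5:**
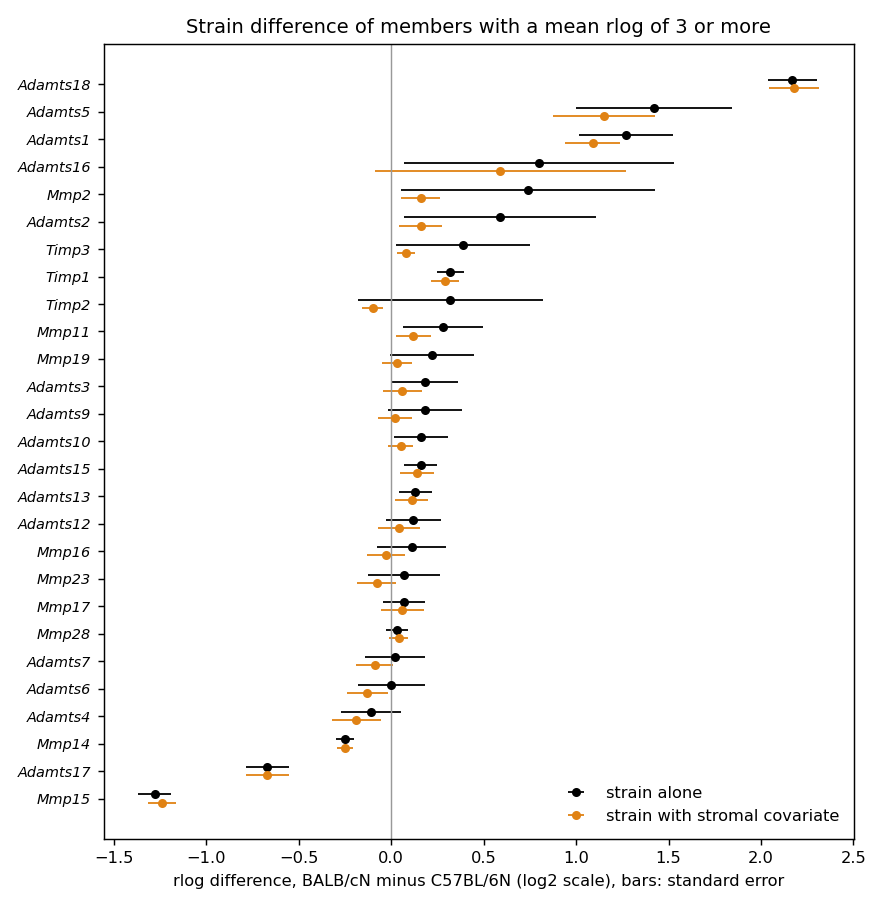
rlog difference, BALB/cN minus C57BL/6N (x axis, log2 scale, bars show the SE), of the 27 members with a mean rlog of 3 or more, fitted with strain alone (black) and with the stromal mean as a covariate (orange). The bars of Mmp2, Timp2, Timp3 and Adamts2 shorten and move towards 0, and Adamts18, Mmp15, Adamts17 and Mmp14 stay in place.

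Adamts1 and Adamts5 were described after their values had been seen. Both cut the large proteoglycans aggrecan and versican, and their genes are separated by 53059 bases of chromosome 16, both on the minus strand. Adamts1 had rlog values of 9.84, 9.22, 9.46 and 10.31 in the BALB/cN corneas and of 8.58, 8.94, 8.18 and 8.04 in the C57BL/6N corneas. Adamts5 had values of 8.97, 7.32, 7.72 and 9.14 in the BALB/cN corneas and of 7.28, 7.24, 6.79 and 6.14 in the C57BL/6N corneas. In both genes all BALB/cN corneas lay above all C57BL/6N corneas, and BALB/cN replicates 1 and 4, which were rich in lens, pigment and smooth muscle transcripts, were the highest.

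The difference of Adamts1 was 1.27 (SE 0.256, limma adjusted p = 0.0112), which missed the threshold, and beside the stromal covariate it was 1.09 (limma adjusted p = 0.000495). It passed as well after median centring (0.00229) and quantile normalization (0.00772). The difference of Adamts5 was 1.42 (SE 0.422, limma adjusted p = 0.0618). Without BALB/cN replicates 1 and 4, the differences were 0.90 for Adamts1 (limma adjusted p = 0.115) and 0.66 for Adamts5 (limma adjusted p = 0.404). In the same fit those of Adamts18 and Mmp15 were 2.18 and -1.19 (limma adjusted p = 0.00113 and 0.000893), and these were the 2 members called, against 1.76% of all genes, while Adamts17 (-0.80, limma adjusted p = 0.0211) and Mmp14 (-0.23, limma adjusted p = 0.0975) were not.

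Adamts16, a protease of the same family that was likewise chosen after its values had been seen, varied most within a strain. Across corneas the rlog value was 6.75, 4.50, 4.33 and 7.86 in the BALB/cN corneas and 5.55, 4.55, 5.54 and 4.60 in the C57BL/6N corneas. The pigment cell list had its highest means in the same corneas, with 9.52, 6.24, 6.15 and 10.37 in BALB/cN and 8.05, 7.01, 7.76 and 6.66 in C57BL/6N. The strain difference of Adamts16 was 0.80 (SE 0.729, limma adjusted p = 0.555), and it was -0.65 without BALB/cN replicates 1 and 4 (limma adjusted p = 0.421). The part of the other tissue in the values of Adamts1, Adamts5 and Adamts16 was not tested.

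Timp1, the inducible inhibitor encoded on the X chromosome, was weakly expressed. Its rlog value was 4.03, 4.05, 3.90 and 4.11 in the BALB/cN corneas and 3.79, 3.77, 3.62 and 3.63 in the C57BL/6N corneas. The strains did not overlap, with 4.02 ± 0.0871 against 3.70 ± 0.0868 (SD, n = 4 each), but the difference of 0.32 did not pass the threshold (SE 0.0745, limma adjusted p = 0.0236, exact two-sided permutation test p = 0.0286). Timp1 would pass at a threshold of 0.05.

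Altogether 13 members with a mean rlog of 3 or more passed neither the strain nor the slope test. Besides Adamts1, Adamts5, Adamts16, Timp1 and Mmp28 these were Adamts3, which cuts procollagens and the precursor of Vegfc, Adamts4, an aggrecanase, Adamts13, the protease of von Willebrand factor, Adamts6, Adamts7, Adamts12, Adamts15 and the membrane-type Mmp17. Adamts3 had a strain difference of 0.18 (limma adjusted p = 0.586) and a slope of 0.22 (limma adjusted p = 0.0152). Adamts4 had a difference of -0.11, Adamts13 of 0.13 and Mmp17 of 0.07, with adjusted p-values from limma of 0.737, 0.418 and 0.745.

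Among other genes of the pathway, convertases, plasminogen activators, clearance receptors and further inhibitors had 2 of 18 tested genes higher in BALB/cN and 0 lower. These were Plat, the tissue plasminogen activator, with a difference of 1.03 (limma adjusted p = 0.000875), and Pcsk6, a convertase of precursors, with 0.44 (limma adjusted p = 0.00504). The list had a median difference of 0.28, and 9 of its genes had a called slope on the stromal mean. Over all genes tested, 2.83% were called higher and 2.91% lower, 6.63% had a called slope, and the median difference was 0.01. The median difference of the stromal keratocyte list was 0.63.

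The ADAM family, related to the ADAMTS enzymes, had 2 of 12 genes lower in BALB/cN and 0 higher, with a median difference of 0.11. The background for the lists of this paragraph was 2.91% of all genes called lower and 2.83% higher, with a median difference of 0.01. Adam33 differed by -1.28 (SE 0.171, limma adjusted p = 0.00109), with values from 6.79 to 7.26 in BALB/cN and from 7.86 to 8.67 in C57BL/6N. Adam17, the sheddase of membrane-bound growth factors and cytokines, differed by -0.47 (limma adjusted p = 0.0021). Of the 7 ADAMTS-like genes, which lack the protease domain, Adamtsl5 was higher by 0.53 (limma adjusted p = 0.000877) and the others did not pass. Of the 4 tested astacins limma called 0, and 1 had an unadjusted p-value under 0.05, against 23.7% of all genes tested.

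Among 24 tested substrates, 2 were higher in BALB/cN and 0 lower, with a median difference of 0.42. Of these substrates, 13 had a called slope on the stromal mean. Over all genes tested, 2.83% were called higher and 6.63% had a called slope, with a median difference of 0.01. For the stromal keratocyte list the median difference was 0.63. Col1a1, Col1a2, Dcn and Lum are also in the stromal list, so a slope of theirs is partly that of a gene on itself. Postn, a matricellular protein, differed by 2.70 (SE 0.293, limma adjusted p = 0.000312), with values from 11.30 to 11.53 in BALB/cN and from 7.80 to 9.35 in C57BL/6N. Col3a1, a fibrillar collagen, differed by 2.45 (SE 0.317, limma adjusted p = 0.000938), with values from 10.64 to 11.57 in BALB/cN and from 8.05 to 9.44 in C57BL/6N. Both had values in the stroma-poor BALB/cN replicate 2 that exceeded those of every C57BL/6N cornea.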

How the data were processed

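Total RNA of 8 corneas was sequenced as paired reads. The authors used cutadapt for trimming, discarded reads of rRNA and tRNA, mapped to strain-specific versions of GRCm38 (TopHat2 2.1.1), moved the alignments back to the reference and obtained gene counts from HTSeq 0.7.1. What was deposited is the rlog transform of these counts by DESeq2, a log2 scale normalized for library size, with 1 column per cornea and no other (0 columns unused). They hold no counts, so depth is unknown.

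The strain contrast was fitted in R 4.3.3 with limma 3.58.1, using lmFit and eBayes with a variance trend, over the 25402 genes with a mean rlog of at least 0. Benjamini-Hochberg adjustment covered all of them, and an adjusted p-value of 0.01 or less was a call. A second fit added the mean of the stromal keratocyte list. It leaves 5 residual degrees of freedom. Members and gene lists were chosen with earlier results of these data known. Printed in full were members called between strains, the Timp genes, Mmp2, Mmp9, Mmp14 and the 5 with the highest level per length. Symbols, positions and exonic lengths came from GENCODE M21 (GRCm38), which had 31302 of the 31314 genes not at 0 everywhere. Single genes were compared with exact permutation tests (scipy 1.17.1). The fits were tested on simulated data. Alternatives were other filters and normalizations, no variance trend, an empirical null, a threshold of 0.05, a replicate block and leaving out corneas. Leaving out the lens-rich or the stroma-poor corneas together was chosen after seeing the data. Tables were handled in pandas 2.3.3 and numpy 2.4.6 (Python 3.11.15), and matplotlib 3.10.9 drew the figures.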

Additional observations from a re-analysis of the deposited data

Results flagged for a closer look

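In 3 of the 30 groups of 4 corneas examined for the genes described in full and the stromal list mean, the gap between a single cornea and its nearest neighbour took up most of the range. Chance gives about 1.5 such groups. The gap to the nearest cornea, as a share of the range of the group, was 0.942 for Mmp2 in BALB/cN, where replicate 2 (10.18) lay below the others (11.68 to 11.78) and the stromal list mean was also lowest. It was 0.977 for Timp4 in BALB/cN, where replicate 1 lay at -1.72 and the others at -1.74. It was 0.993 for Mmp9 in C57BL/6N, where replicate 1 lay at 0.99 and the others at 0.84. Timp4 and Mmp9 were near the lower end of the table.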

How the results depend on the processing

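Adamts18 and Mmp15 were called under all strain alternatives except the empirical null, which left 0 genes and 0 members called (0 higher, 0 lower). With the limma p-values recalibrated to that null, 1732 genes were under 0.05 before adjustment. Median centring called 958 genes (413 higher), a threshold of 0.05 called 2842 (1413 higher, 1429 lower) and 6 members, and the stromal covariate called 2414 (1214 higher, 1200 lower). Leaving out the lens-rich corneas called 447 (219 higher, 228 lower) and 2 members, and leaving out the stroma-poor corneas 852 (411 higher, 441 lower) and 2 members, with fewer samples by construction. With each cornea left out in turn, from 953 to 1163 genes were called (from 468 to 608 lower, from 485 to 561 higher) and from 2 to 4 members. The replicate block called 554 genes (274 higher, 280 lower) and 2 members, Adamts18 and Mmp15. Replicate numbers were not taken as pairs: deviations of same-numbered corneas correlated at 0.305, -0.53, -0.203 and -0.454, and 1 of 8 corneas correlated best with its own number. For the slope, median centring called 7368 genes and 11 members, and the fits without a cornea called from 933 to 1551 genes and from 5 to 9 members. The cause was not tested except where stated.

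Signs changed only in differences and slopes that were not called. The strain difference of Timp2 was -0.10 with the covariate, -0.03 without the lens-rich and -0.36 without the stroma-poor corneas, where that of Timp3 was -0.08 and that of Mmp2 -0.21. That of Adamts16 was -0.65 without the lens-rich corneas and that of Mmp28 -0.05 after median centring. With a cornea left out, differences ranged from -0.01 to 0.66 for Timp2, from -0.02 to 0.03 for Mmp9 and from -0.01 to 0.06 for Mmp28, and slopes from -0.06 to 0.06 for Adamts17, from -0.07 to 0.05 for Adamts18 and from -0.01 to 0.01 for Mmp14. After median centring slopes were -0.07 for Adamts17, -0.03 for Timp1 and -0.05 for Mmp9. Among single members, 201 of 246 strain comparisons and 141 of 180 slope comparisons kept direction and call.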
